A study of Mus musculus with 8 samples.

Results

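Immediate-early response genes are transcribed within minutes of a stimulus and need no new protein synthesis for their induction. The 10 genes described here were chosen by symbol, as those rows of the deposited count table whose symbol is Fos, Jun, Junb, Jund, Egr1, Ier2, Btg2, Zfp36, Dusp1 or Atf3. All 10 were present among the 16109 genes of the table, and all 10 passed the filter on low counts that left 15850 genes for testing. Retinal messenger RNA of C57BL/6 mice of postnatal day 5 was sequenced in 8 libraries. Of these 4 carry the genotype label wild type (WT), and the other 4 the label C3 KO, a genotype in which the gene of complement component C3 is targeted. No treatment is named for either group. How many animals stand behind a library is unknown from the sources used here, so p-values measure the spread between these libraries, which may in part be technical. The comparison asks how gene expression differs between wild-type and C3 deficient retinas while the retinal vessels develop.

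In a resting cell these genes are held ready. Kinase cascades and calcium signals reach transcription factors such as serum response factor and CREB, which are already bound at the promoters, and a pulse of transcript follows. Fos and Jun proteins then pair as the AP-1 transcription factor, Egr1 acts as a zinc finger activator, and other early genes such as Dusp1, Zfp36 and Btg2 limit the response by removing phosphates from kinases, by speeding transcript decay or by slowing proliferation. In the retina, Fos and Egr1 respond to neuronal activity and light, Jun and Atf3 are known for their part in injured ganglion cells, and Btg2 marks progenitors before they give rise to neurons. Their levels are also known to react to how quickly tissue is collected.

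The labels and the tissue were checked before the members were compared. C3 itself had 33 to 55 reads in the libraries labelled WT and 1419 to 1718 in the libraries labelled C3 KO, which is the reverse of what the labels name. Higher and lower therefore always mean C3 KO against WT as the libraries were labelled. Sex-linked transcripts moved with the labels as well, with Xist at 295 to 2441 CPM (a gene's reads after all libraries are brought to a common depth) under the WT label and 1.48 to 2.65 CPM with the C3 KO label. The mean level of Y-linked transcripts was 74.8 to 88.2 CPM across the libraries labelled C3 KO. It was 0.448, 5.05 and 3.71 CPM in WT replicates 1, 2 and 4, where Xist was at least 2195 CPM. WT replicate 3 stood apart, with Xist at 295 CPM beside a Y-linked mean of 75.8 CPM. Sex-linked transcripts thus followed the label in all libraries but WT replicate 3. Sex and genotype therefore cannot be fully told apart for Jun, Btg2 and the other genes below. The photoreceptor factor Crx averaged 1342 CPM with the WT label and 1153 CPM with the C3 KO label and was called lower (edgeR adjusted p = 0.0151), though not without C3 KO replicate 3 or 4 (0.0654 and 0.0657). Its partner Nrl averaged 1604 and 1436 CPM (edgeR adjusted p = 0.0551, and 0.0231 by DESeq2). Tfap2a and Tfap2b, the amacrine cell factors on the list of 12 retinal markers, have no row in the deposited count table and could not be compared. The smallest library had 16503564 counted reads and the largest 19608824.

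Of the 10 members, 2 were lower in the libraries labelled C3 KO and none was higher, by edgeR's quasi-likelihood test with Benjamini-Hochberg adjustment over all tested genes and a threshold of 0.05. Across all 15850 genes 5.98% were called lower and 8.33% higher, so 2 of 10 is a small count to read against that background. At an unadjusted p below 0.05 the count was 3 lower and 0 higher, DESeq2 called the same number in each direction as edgeR, and limma-voom called 2 lower and 1 higher. The members called were Jun and Btg2, and they were also the members whose groups did not overlap, where 17.4% of all tested genes did not overlap. The median log2 fold change of the members was −0.16, with 8 negative and 2 positive, beside 0.0044 for all tested genes, of which 50.9% were positive.

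**Figure D1:**
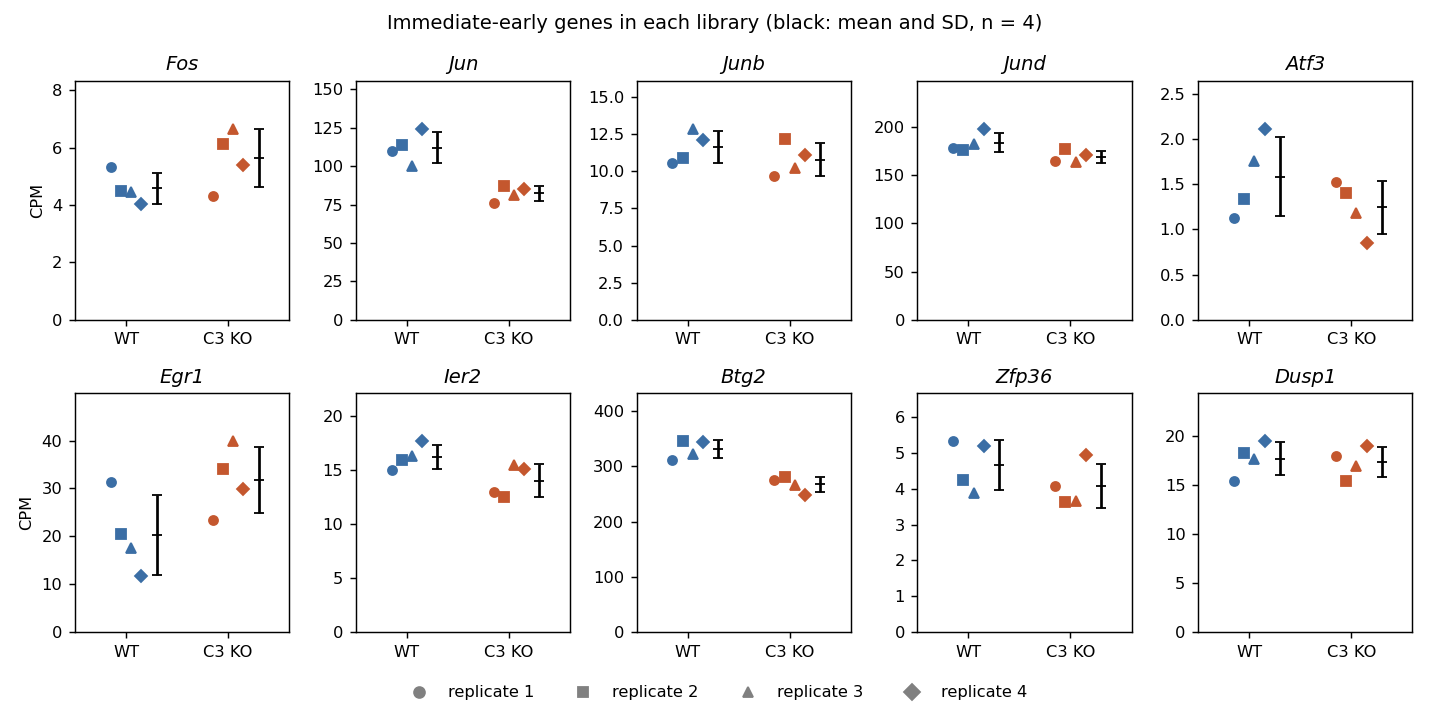
CPM of each member in each library, 1 panel per gene with its own axis from 0. Blue points are libraries labelled WT, orange points libraries labelled C3 KO, point shapes give the replicate number, and black marks give the mean and SD (n = 4). The groups are apart in the Jun and Btg2 panels, and in the Egr1 panel WT replicate 1, at 31.4 CPM, lies among the libraries labelled C3 KO.

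The stretches before the start sites of Btg2 and Jun, the members that were lower, are shown together with those of Fos and Dusp1, whose differences did not pass, because early genes are known for short response elements near their starts. They are the 250 bases before the annotated start from RefSeq (GRCm38.p6), 5′ to 3′ on the gene's own strand. An entry was matched for 8 of the 10 members, and none for Egr1 and Ier2. Capitals mark every match to the motifs searched, which were TGACGTCA (the full cyclic AMP response element, CRE), TGACG (its core, part of each full site), TGACATCA (the Jun and ATF variant), TGAGTCA (the AP-1 site), the box CCAAT, the TATA box as TATAAA, and the CArG box of serum response factor. The TATA box was searched on the gene's strand, the CArG box reads alike on both, and the others were searched on both strands.
Btg2, chr1:134079156-134079405, minus strand: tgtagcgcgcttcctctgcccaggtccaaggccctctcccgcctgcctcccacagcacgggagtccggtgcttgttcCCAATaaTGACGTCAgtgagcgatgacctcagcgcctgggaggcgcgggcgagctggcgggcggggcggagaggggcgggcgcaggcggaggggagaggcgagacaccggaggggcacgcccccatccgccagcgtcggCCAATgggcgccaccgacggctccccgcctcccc
Jun, chr4:95052223-95052472, minus strand: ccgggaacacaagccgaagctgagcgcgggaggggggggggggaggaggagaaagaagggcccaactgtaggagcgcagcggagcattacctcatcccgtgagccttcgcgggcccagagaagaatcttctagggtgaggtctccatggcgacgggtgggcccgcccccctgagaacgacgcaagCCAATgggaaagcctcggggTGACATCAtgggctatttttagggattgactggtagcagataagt
Fos, chr12:85473640-85473889, plus strand: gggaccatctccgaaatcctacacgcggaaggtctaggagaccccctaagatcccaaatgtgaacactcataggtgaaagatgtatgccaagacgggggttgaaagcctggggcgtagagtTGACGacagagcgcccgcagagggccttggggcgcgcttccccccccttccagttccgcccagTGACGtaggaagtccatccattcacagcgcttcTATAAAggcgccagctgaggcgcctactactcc
Dusp1, chr17:26508473-26508722, minus strand: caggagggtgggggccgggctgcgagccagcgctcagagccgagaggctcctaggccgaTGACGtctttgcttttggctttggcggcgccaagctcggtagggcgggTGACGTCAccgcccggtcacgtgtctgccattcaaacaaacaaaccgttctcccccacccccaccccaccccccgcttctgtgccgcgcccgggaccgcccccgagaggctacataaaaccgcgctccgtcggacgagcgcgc

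Btg2 and Dusp1 each carried 1 full CRE, 166 to 159 bases before the start in Btg2 and 143 to 136 bases before it in Dusp1. The full CRE was found in 1.55% of all 32851 promoter windows of this length. Jun carried TGACATCA at 45 to 38 bases before its start, a match found in 2.93% of windows, and Fos carried 2 CRE cores and a TATA box 33 to 28 bases before its start. The core was present in Atf3, Btg2, Dusp1, Fos and Junb, 5 of the 8 matched members, and in 17.8% of all windows. The CArG box was matched in Zfp36 and in 1.47% of all windows, and TGAGTCA in none of the 8 and 4.46% of all windows. These matches are descriptions of the letters in these windows, and sites farther upstream were not searched. Of the 2 members with a full CRE, Btg2 was lower and Dusp1 differed by 1.02-fold.

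Among the AP-1 subunits, Jun showed the difference. Jun encodes c-Jun, the main partner of Fos. Jun read 109.6, 113.9, 100.5 and 124.4 CPM in WT replicates 1 to 4, and 76.4, 86.8, 81.0 and 84.9 CPM in C3 KO replicates 1 to 4. Every library labelled C3 KO lay below every library labelled WT. The means were 112.1 ± 9.92 and 82.3 ± 4.61 CPM (SD, n = 4), so Jun was 1.36-fold lower under the C3 KO label. On the log2 scale the difference was −0.45 ± 0.061 (SE), at an edgeR adjusted p = 3.96e-05. The call held in all 18 alternatives run, with log2 fold changes between −0.50 and −0.36. It was weakest with the level of Y-linked transcripts as a covariate, at −0.36 and an edgeR adjusted p = 0.0307. The annotation of GRCm38 places an antisense gene, Junos, over Jun, and Junos has no row in the deposited count table. No source used here states whether reads were counted by strand, so any reads of Junos cannot be told apart from those of Jun.

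The other Jun paralogs differed less. Jund, which is expressed steadily in most tissues, read 177.7, 175.6, 182.3 and 197.7 CPM with the WT label and 164.6, 176.6, 163.3 and 170.2 CPM with the C3 KO label. C3 KO replicate 2 overlapped the lowest WT library, and the log2 fold change of −0.12 ± 0.049 (SE) had an edgeR adjusted p = 0.103. Junb, an inducible subunit with weaker activity than c-Jun on many sites, read 10.6, 10.9, 12.9 and 12.1 CPM with the WT label and 9.68, 12.2, 10.2 and 11.1 CPM with the C3 KO label. Its ranges overlapped almost throughout, with a log2 difference of −0.11 ± 0.12 (SE) and an edgeR adjusted p = 0.595. The annotation places an antisense gene over Jund, with 11 to 33 reads per library against 2895 to 3466 for Jund. The end of Prdx2, which had 7550 to 9482 reads per library, lies over Junb on the opposite strand. Reads of these pairs cannot be told apart.

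Fos, the prototype early gene and the partner of the Jun proteins, was scarce in these retinas, with 67 to 118 reads per library. It read 5.33, 4.48, 4.47 and 4.04 CPM in WT replicates 1 to 4 and 4.33, 6.14, 6.66 and 5.40 CPM in C3 KO replicates 1 to 4. C3 KO replicates 2, 3 and 4 were above all WT libraries, while C3 KO replicate 1 was lower than 3 of them. The log2 difference of 0.29 ± 0.17 (SE) did not pass (edgeR adjusted p = 0.258) and had a 95% interval from −0.053 to 0.64. Atf3, a stress-induced member of the ATF family, was the scarcest member, at 22, 23, 33 and 35 reads under the WT label and 30, 27, 21 and 15 reads under the C3 KO label. At these counts its interval, from −0.96 to 0.29 on the log2 scale, covers differences in both directions (edgeR adjusted p = 0.505). A gene typed as miscellaneous RNA, Gm24748, is annotated over Atf3 on the opposite strand and has no row in the count table.

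Egr1, a zinc finger activator that is induced with Fos by many stimuli, had the largest fitted variation between libraries of the same label among the members. It read 31.4, 20.4, 17.5 and 11.6 CPM in WT replicates 1 to 4, a 2.70-fold range, and 23.4, 34.0, 39.9 and 29.9 CPM in C3 KO replicates 1 to 4, a 1.70-fold range. Atf3, at far fewer reads, had ranges of 1.87-fold and 1.79-fold, and for a median gene the range within a group was 1.20-fold and 1.19-fold. The fitted coefficient of variation between libraries was 0.315 for Egr1, above that of 99.4% of tested genes, beside a median of 0.0762 for all genes and 0.0885 for the members. The means were 20.3 ± 8.29 and 31.8 ± 6.93 CPM (SD, n = 4). The log2 difference was 0.64 ± 0.32 (SE) and did not pass (edgeR adjusted p = 0.255). Its 95% interval ran from −0.14 to 1.42. Without WT replicate 1, the highest WT library, the log2 fold change was 0.94 with an edgeR adjusted p = 0.0458, and limma-voom on all 8 libraries gave an adjusted p = 0.0262. Whether Egr1 is called thus depends on 1 library and on the tool.

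**Figure D2:**
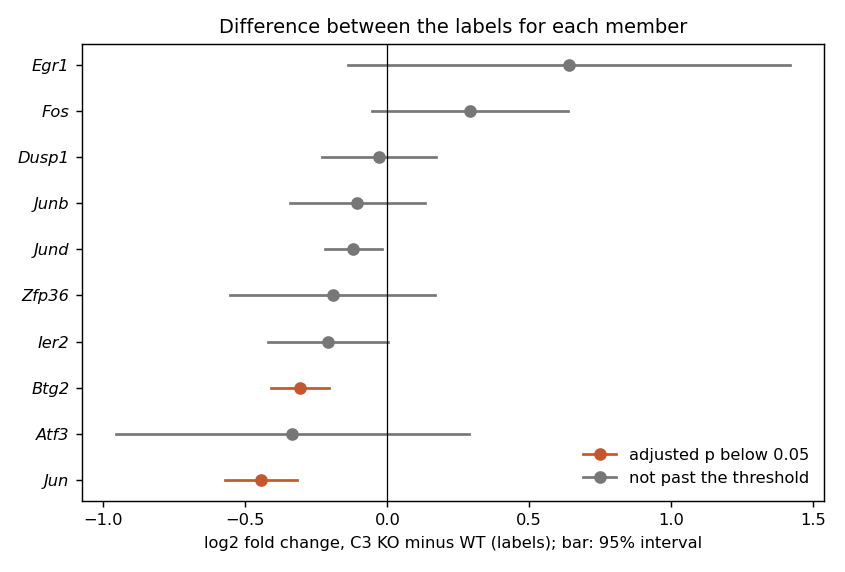
Log2 fold change of each member, C3 KO minus WT as labelled, with its 95% interval from the edgeR fit. Orange marks Jun and Btg2, which passed the adjusted threshold, and Egr1 has the widest interval, from −0.14 to 1.42.

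Fos and Egr1 ordered the libraries alike. Under the WT label both were highest in replicate 1, followed by replicates 2, 3 and 4, and under the C3 KO label both were highest in replicate 3, followed by replicates 2, 4 and 1. The order of Fos in WT replicates 2 and 3 rests on 4.48 and 4.47 CPM (77 and 84 reads), which is close to a tie. Of the other 15849 tested genes, 26 (0.164%) had the same order as Fos in both groups, and Egr1 was among them. The shared order is a description of these libraries, and whether it marks anything particular to the pair was not tested. Atf3 ran the opposite way to Fos and Egr1 in the WT libraries, from its highest value in replicate 4 to its lowest in replicate 1. Jun stayed within 100.5 to 124.4 CPM with the WT label and 76.4 to 86.8 CPM with the C3 KO label across this range of Fos.

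**Figure D3:**
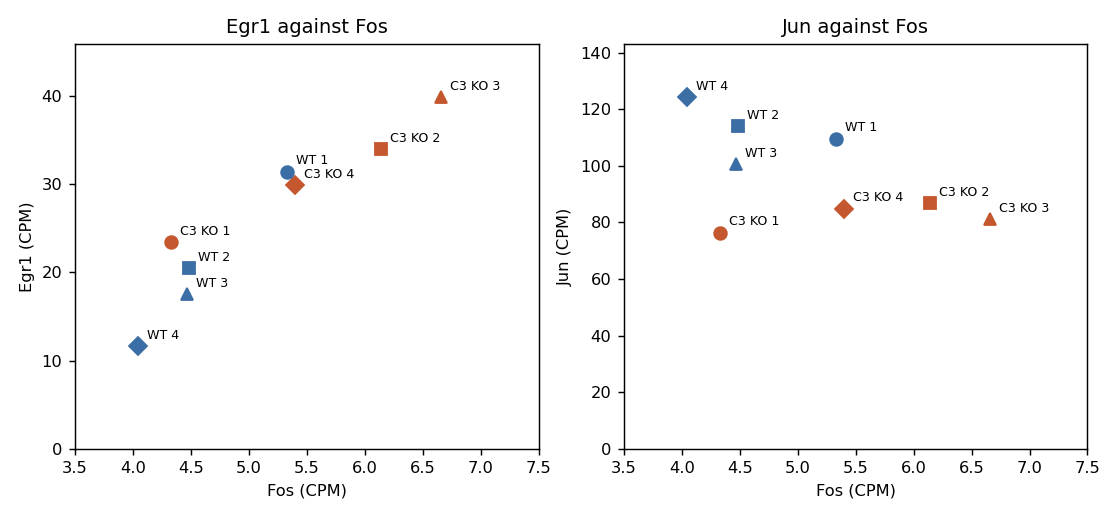
Egr1 (left) and Jun (right) against Fos in each library, all in CPM, with the Fos axis starting at 3.5. Blue points are libraries labelled WT, orange points libraries labelled C3 KO, and each is named by group and replicate. Egr1 is lowest and highest in the same libraries as Fos, WT replicate 4 and C3 KO replicate 3, while Jun separates into the 2 labels.

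By size of difference the genes most like Fos were others. Over the 8 libraries, after each gene was centred on its own mean log2 CPM, the 5 genes of at least 10 CPM with the smallest root mean square difference from Fos were Cdh10 (0.0708), Hpcal4 (0.0895), Lcp1 (0.0908), Pnma2 (0.0982) and Abca7 (0.106), out of 10979 compared. Of the members, Jund (0.2895), Junb (0.290), Dusp1 (0.323) and Ier2 (0.329) were nearer to Fos than Egr1, which stood at 0.343, with 10067 of the 10979 genes closer. Jun stood at 0.416. This measure depends on the size of the swings as well as on their order. A gene that did not vary would stand at about the spread of Fos itself, whose log2 RPKM had an SD of 0.248. All other members stood farther from Fos than that, so their ranking by this measure does not show which of them resembles Fos.

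Among the members that limit the response, Btg2 was lower. Btg2 is an antiproliferative protein that recruits the deadenylase complex, and it was the most abundant member. It read 312.4, 345.8, 322.8 and 344.3 CPM in WT replicates 1 to 4 and 275.4, 280.7, 265.9 and 248.4 CPM in C3 KO replicates 1 to 4. The highest library labelled C3 KO was below the lowest labelled WT. The means were 331.3 ± 16.4 and 267.6 ± 14.2 CPM (SD, n = 4), so Btg2 was 1.24-fold lower under the C3 KO label, by −0.31 ± 0.050 on the log2 scale (SE), at an edgeR adjusted p = 0.000235. This call also held in all 18 alternatives, between −0.34 and −0.28. With the level of Y-linked transcripts as a covariate the edgeR adjusted p was 0.0218, the largest of them.

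Dusp1, Zfp36 and Ier2 did not pass. Dusp1, a phosphatase that switches off MAP kinases, read 15.4, 18.3, 17.6 and 19.5 CPM with the WT label and 17.9, 15.5, 16.9 and 19.0 CPM with the C3 KO label, and the groups overlapped throughout. Its log2 difference was −0.029 ± 0.098 (SE) at an edgeR adjusted p = 0.879, with a 95% interval from −0.23 to 0.17. The annotation places Ergic1, which had 1668 to 1988 reads per library against 297 to 352 for Dusp1, over it on the opposite strand. A pseudogene, Gm8225, also lies over Dusp1 on the opposite strand, and 2 further genes lie over it on its own strand. Over Zfp36 lies an antisense gene that has no row in the count table. Any reads of these genes cannot be told apart either. Zfp36, or tristetraprolin, which binds AU-rich elements and speeds the decay of early transcripts, had 65 to 104 reads per library. It read 5.33, 4.25, 3.88 and 5.19 CPM with the WT label and 4.07, 3.64, 3.67 and 4.94 CPM with the C3 KO label, again with overlap (edgeR adjusted p = 0.511). Ier2, a small nuclear protein of the early response, read 15.02, 15.89, 16.27 and 17.68 CPM with the WT label and 12.99, 12.49, 15.52 and 15.12 CPM with the C3 KO label. Only C3 KO replicates 3 and 4 reached the WT range, and the log2 fold change of −0.21 ± 0.10 (SE) had an edgeR adjusted p = 0.178.

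Levels of different genes can be compared only per length, for which the deposited log2 RPKM values were turned back to RPKM (CPM per unit of transcript length). Over the 8 libraries Btg2 was highest at 109.3 ± 13.9 RPKM (SD, n = 8), followed by Jund at 61.2 ± 4.11 and Jun at 30.5 ± 5.60. Their ranges did not overlap with one another, and the lowest Jun library, at 24.0 RPKM, was above the highest library of every remaining member. Ier2, Egr1, Dusp1 and Junb formed a middle group whose neighbours overlapped, at means of 10.01, 8.42, 6.54 and 6.26 RPKM. Egr1 alone ranged from 3.82 to 12.8 RPKM and so spanned that group. Zfp36 at 2.50 and Fos at 2.22 RPKM overlapped with each other, and Atf3 was lowest at 0.768 RPKM, below every Fos value. The members that were lower under the C3 KO label were thus among the 3 most abundant, and Jund, the other one, differed by 1.09-fold without passing.

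**Figure D4:**
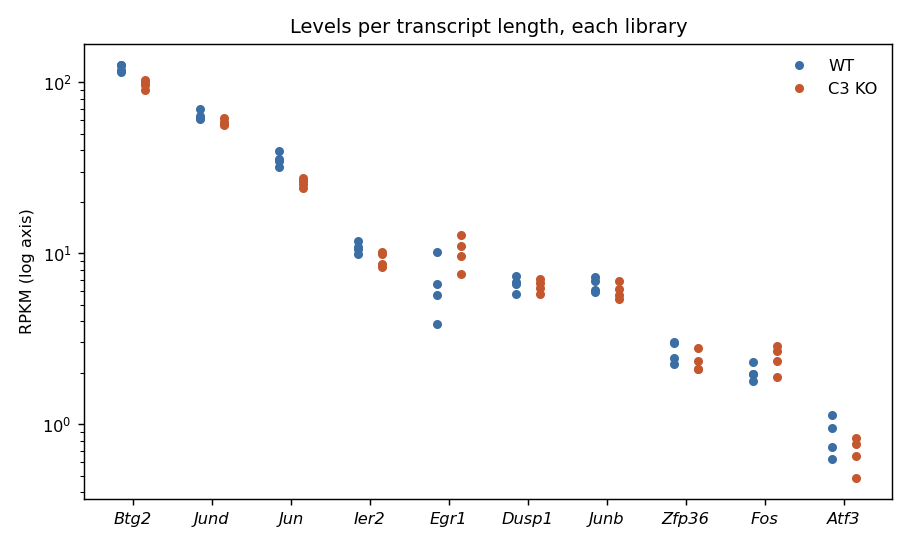
RPKM of each member in each library on a log axis, ordered by mean, with libraries labelled WT in blue and C3 KO in orange. Btg2, Jund and Jun lie above 20 RPKM in every library, and Atf3 is lowest.

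Around the members, 6 further lists of early response genes held 102 genes, of which 95 were tested. Of these, 14 (14.7%) were called, 4 higher and 10 lower under the C3 KO label, where 14.3% of all tested genes were called in either direction, so the lists as a whole were near the background. Their median log2 fold change was −0.0049. Set against the 5.98% lower and 8.33% higher of all tested genes, each list's counts below are small numbers, and differences between the lists were not tested. With the level of Y-linked transcripts as a covariate, 7 of the 14 lost their call: Zfp36l2, Ier3, Nr4a1, Mkl1, Creb1, Maf and Hsph1.

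The list of feedback regulators and transcript decay factors had 5 of 20 lower and 0 higher, with a median of −0.11. At an unadjusted p below 0.05 the counts were 7 lower and 1 higher, and DESeq2 and limma-voom gave the same counts as edgeR. The called genes belonged to the protein families of 2 members, apart from Spry2, an inhibitor of receptor tyrosine kinase signalling. Tob2, an antiproliferative relative of Btg2, read 166.3, 184.9, 171.0 and 167.4 CPM with the WT label and 111.3, 126.3, 107.7 and 112.8 CPM with the C3 KO label. With no overlap, it was 1.505-fold lower (edgeR adjusted p = 1.49e-07). Btg1, the closest relative of Btg2, was 1.31-fold lower, at 197.5 ± 17.7 CPM with the WT label and 150.3 ± 7.08 CPM with the other (SD, n = 4; edgeR adjusted p = 8.15e-05). Zfp36l1, a decay factor of the Zfp36 family, averaged 46.9 ± 6.70 CPM with the WT label and 31.9 ± 3.70 CPM with the C3 KO label (SD, n = 4), a fall that passed at an edgeR adjusted p = 0.000977, and Spry2 was 1.32-fold lower. The fifth, Zfp36l2, was 1.37-fold lower (edgeR adjusted p = 0.00221, and 0.0548 with the Y-linked covariate), and is named here after its value was seen, as is Tob1, at a log2 fold change of −0.17 and an adjusted p = 0.0699.

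Of 16 tested genes among further early transcription factors 1 was higher and 2 lower, with a median of 0.029. Ier5, a relative of Ier2, read 51.7, 58.9, 55.6 and 68.0 CPM with the WT label and 40.9, 40.0, 48.3 and 40.9 CPM with the C3 KO label. It was 1.38-fold lower without overlap (edgeR adjusted p = 0.000602). Ier3 was 1.26-fold lower (edgeR adjusted p = 0.0161), with adjusted p-values of 0.0506 without WT replicate 2 and 0.0523 without C3 KO replicate 2. The orphan nuclear receptor Nr4a1 was 1.24-fold higher at an edgeR adjusted p = 0.0386, but leaving out single libraries ended the call in 6 of 8 cases, where the adjusted p reached 0.135.

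Among 19 genes regulated by neuronal activity or secreted early, 2 were higher and 0 lower, with a median of 0.11. At an unadjusted p below 0.05 the counts were 3 and 1, and DESeq2 and limma-voom gave 2 and 0. They were Scg2, a secretory granule protein, which rose 1.24-fold, to 271.2 ± 7.83 CPM (SD, n = 4) in C3 KO libraries as labelled (edgeR adjusted p = 5.87e-05), and Rgs4, a regulator of G protein signalling, which was 1.29-fold higher. Arc, an early gene of active synapses, stood at 1.34 and 1.22 CPM and did not pass.

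Of the upstream kinases and factors 2 of 20 were lower and 0 higher, with a median of 0.0036, and the counts at an unadjusted p below 0.05 were 2 and 2. DESeq2 and limma-voom also gave 2 lower and 0 higher. The called genes were Mkl1, a coactivator of serum response factor, and Creb1, the transcription factor that binds the CRE, at log2 fold changes of −0.26 (edgeR adjusted p = 0.0156) and −0.17 (adjusted p = 0.0257). Mkl1 lost the call without WT replicate 1 (adjusted p = 0.0578), and Creb1 without WT replicate 2 (0.0718) or C3 KO replicate 4 (0.0993). Among 12 AP-1 partners Maf was higher, 1.17-fold (edgeR adjusted p = 0.00832). The call was lost by limma on log2(RPKM + 1) and log2(RPKM + 0.1) (adjusted p = 0.0561 and 0.0542) and with the Y-linked covariate (0.18). Of that list 0 were lower, with 1 lower at an unadjusted p below 0.05 and 0 by DESeq2 and limma-voom. Among 8 heat shock genes that respond to tissue handling 1, Hsph1, was lower, by 1.14-fold (edgeR adjusted p = 0.0127), and 0 were higher, also at an unadjusted p below 0.05 and by DESeq2 and limma-voom. Their summed level overlapped between the labels, at 1091 to 1193 CPM under WT and 1136 to 1159 CPM under C3 KO.

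**Figure D5:**
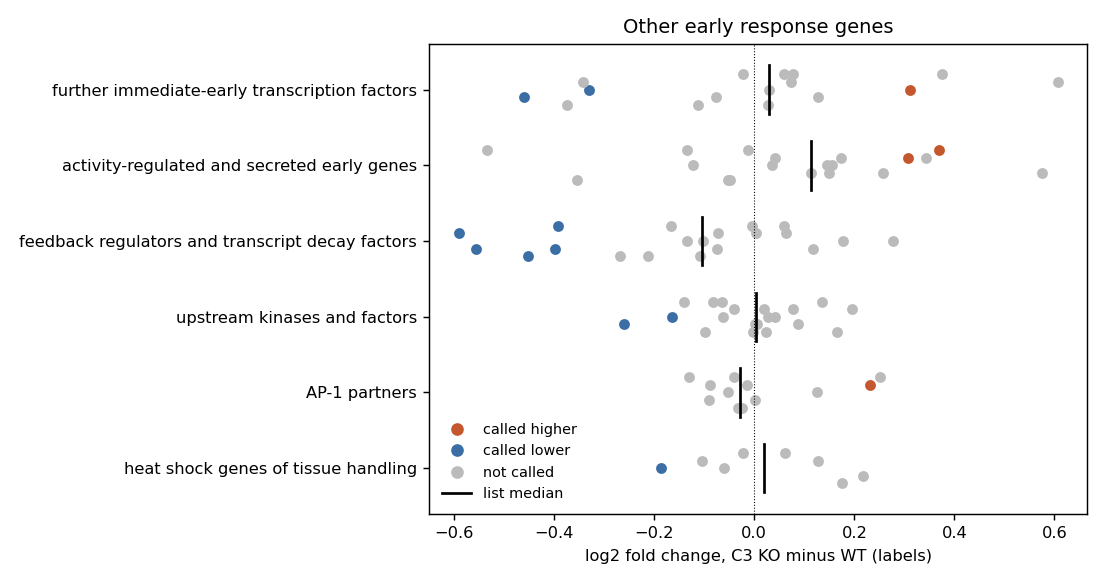
Log2 fold change of each tested gene of the 6 further lists, C3 KO minus WT as labelled, with 1 point per gene, orange for called higher, blue for called lower and grey for not called. Black lines are list medians, and the 5 genes called lower among feedback regulators and transcript decay factors lie at the left.

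Markers of some cell types also moved with the labels. Genes of pigment epithelium and melanocytes had 11 of 14 higher, with summed levels of 110.3 to 168.8 CPM with the WT label and 303.6 to 332.8 CPM with the C3 KO label. The summed level of 11 microglia genes, of which 3 were called higher, was 154.2 to 196.8 against 197.6 to 237.0 CPM, close to overlap. That of 5 red blood cell genes was 28.5 to 51.2 against 18.1 to 23.2 CPM. Summed levels of endothelial genes overlapped, at 345.4 to 397.6 against 312.3 to 380.7 CPM, with 1 of 8 called higher. Those of pericyte and smooth muscle, astrocyte and lens genes overlapped too, with 0 of 7, 1 of 5 and 0 of 2 tested genes called. On the list of fibroblast and scleral genes, Pdgfra, which retinal astrocytes also express, made up most of the sum, at 143.9 to 183.7 against 189.0 to 226.6 CPM. The other 5 genes of that list summed to 5.85 to 9.26 CPM with the WT label and 12.5 to 17.7 CPM with the C3 KO label, with 3 of them called higher. Within the neural retina, the ganglion cell factor Pou4f2 was 1.35-fold higher (edgeR adjusted p = 0.00391, and 0.0806 with the Y-linked covariate). In bulk tissue fewer cells of a type and less RNA per cell cannot be told apart. The part of these cell types in the differences of Jun, Btg2 and the other genes named was not tested.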

How the data were processed

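Poly(A) RNA of 8 retinal libraries, 4 labelled WT and 4 labelled C3 KO, was analysed from the deposited tables. Dissection in cold buffer, removal of the hyaloid vessels and a directional library kit are recorded per the labels' protocols. STAR, HTSeq and the builds mm9 and NCBIM37 appear in the submitters' processing notes, with no tool version. The deposited raw counts are whole reads per gene without normalization, and every gene reaches at least 15 reads in a library. The authors' second table holds log2 RPKM values. With 2 reads added per gene, scaled by library size, the counts matched those log2 values to within 0.0133 after a constant for each gene and library, so the RPKM values used here include that offset.

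Counts were tested in R 4.3.3 with edgeR 4.0.16: its expression filter (15850 genes kept, 259 left out), TMM scaling and the quasi-likelihood test with robust dispersion, C3 KO against WT without covariates. Standard errors are the size of the fold change on the log2 scale over the square root of F. Alternatives used DESeq2 1.42.0 and limma 3.58.1. In simulated counts for this comparison, run on 15772 genes, 50 genes each were changed by 1.25, 1.5, 2 and 4-fold. Of these, 50.0% of 1.25-fold and 82.0% of 1.5-fold changes were recovered, with 15 false calls among 15572 unchanged genes. In the libraries 14.3% of tested genes were called, a larger share than was changed in the simulation, so recovery there may differ. No pair of libraries in a group agreed within sampling noise (chi-square per degree of freedom at least 3.70).

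The members and the gene lists were chosen with earlier results of these data known. All 10 members are named. Of each further list up to 4 called genes with the smallest p are named, with the 5 genes nearest to Fos, and genes named outside that rule, such as C3, Xist, Arc and the markers, were chosen after their values were seen. Lists were described by counts and medians, without a set test. Promoters came from RefSeq (GRCm38.p6), and overlaps between genes from the GENCODE annotation of GRCm38, which is not the build in the notes, so no coordinates other than those of the promoters are given.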

Additional observations from a re-analysis of the deposited data

Results flagged for a closer look

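Chance alone marks about 1 in 20 groups by this criterion, and 3 of 56 groups of 4 libraries, from 28 named genes, were marked because 1 library lay far from the others. None of the 10 members was among them. Ier5 stood at 48.3 CPM in C3 KO replicate 3, where the other libraries of that label read 40.0 to 40.9 CPM. Creb1 stood at 146 CPM in C3 KO replicate 4, against 160 to 162 CPM. Cdh10, one of the genes nearest to Fos, stood at 10.6 CPM in C3 KO replicate 1, against 13.8 to 14.4 CPM.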

How the results depend on the processing

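Jun and Btg2 kept their direction and call under all 18 alternatives each, and the number of members called lower was 2 throughout. The number called higher was 1 by limma-voom, and 0 to 1 when 1 library was left out. That gene was Egr1, at log2 fold changes of 0.68 by limma-voom and 0.94 without WT replicate 1, the only library whose removal gave the call. Over all fits without single libraries the log2 fold change of Egr1 ran from 0.45 to 0.94. Its adjusted p-values over the alternatives ran from 0.0262 to 0.443. Members that did not pass could change sign: Zfp36 was at 0.072 with a Y-linked covariate (the mean log2 CPM of Y-linked genes), and Dusp1 ran from −0.092 to 0.020 without single libraries, above 0 without WT replicate 4 (0.012) or C3 KO replicate 2. The cause was not tested. Over all genes 836 were called higher by limma on log2(RPKM + 1) and 824 on log2(RPKM + 0.1). With the Y-linked covariate 349 were higher and 181 lower. Leaving out 1 library gave 761 to 1516 higher and 544 to 1027 lower. Of the further early lists, 2 genes were higher on either RPKM scale, and 2 higher and 5 lower with the Y-linked covariate. That covariate moved with the labels, and Zfp36l2, Maf, Ier3, Nr4a1, Hsph1, Mkl1 and Creb1 lost their call with it. Maf, Nr4a1, Mkl1 and Creb1 also lost it on both RPKM scales.

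The labels share replicate numbers, but same-numbered libraries did not deviate together (correlations of −0.0597 to 0.0885 across genes), so the numbers were not taken to pair them. With a replicate block 1415 genes were higher and 985 lower, and 0 and 2 of the members. Atf3 had 15 to 35 reads per library, and Fos and Zfp36 had 65 to 118. How recovery depends on read count was not tested.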
